A study of Homo sapiens with 4 samples.

Results

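The regions described here are the gained ATAC-seq regions of K562 cells that lie in 3 large stretches known for holding few genes, 1 each on chromosomes 5, 8 and 13. The union of the 3 deposited lists of regions gained over control held 100205 regions, of which 698 had their midpoint at 18 to 29 Mb of chromosome 5, 109 to 116 Mb of chromosome 8 or 54 to 71.5 Mb of chromosome 13 (GRCh37). The deserts held 243, 208 and 247 of these members, and the rest of the same chromosomes held 6343, 5326 and 1879 regions. Members were chosen by position and by presence in a list, which the authors' p-values and log2 folds over control decided, so counts, list shares and folds over control are given as a description, with no test.

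K562 is an established human chronic myeloid leukaemia line. The study treated K562 cells with doxorubicin at 10 µM (Doxo), N,N-dimethyldoxorubicin at 10 µM (diMe-Doxo) or aclarubicin at 20 µM (Acla), each for 4 hours, and set them against untreated K562 cells. Each list holds signal for 2 libraries of 1 drug and 2 control libraries, and the same 2 control libraries stand in all 3 lists. Whether a group's libraries came from separate cultures is not in the labels, so p-values measure the spread between these libraries, which may be technical. No gene was targeted and the lists hold gained regions only, so lost and unchanged regions were not analysed here.

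ATAC-seq counts fragments cut out by a transposase, which enters DNA where nucleosomes leave it exposed. Anthracyclines slide between the bases of DNA. Doxorubicin traps topoisomerase II on cut DNA and also drives histones off chromatin, and aclarubicin and dimethylated doxorubicin are known for removing histones with few breaks. Gene deserts are long stretches with few coding genes, late to replicate and mostly closed in most cell types. In the gene order of RefSeq on GRCh38.p14, the stretch from CDH18 to CDH9 on chromosome 5 holds 5 protein-coding genes, among them CDH12 and CDH10, which encode cadherins, the cell adhesion proteins, and PRDM9, which sets meiotic recombination sites. The stretch from TMEM74 to TRPS1 on chromosome 8 holds 11, with CSMD3, a very large neural gene, and KCNV1, a potassium channel subunit. It also holds NUDCD1, ENY2 and EBAG9, which most cells use. The stretch from OLFM4 to KLHL1 on chromosome 13 holds 15, with the protocadherins PCDH17, PCDH20 and PCDH9, and with DIAPH3 and TDRD3, which most cells use. That table has another build than the lists, so it gives names and order only, and no member was placed in or beside a gene. The stretches need not begin and end where the windows do, so these gene counts are not counts of the windows.

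Reads in listed regions ran from 3534855 to 7266289 per treated library. The 2 control libraries had 248362 and 253175 reads in the regions of the Doxo list. Reads were recovered from the deposited signal, of which 100% of values came out as whole reads within 0.1 reads. No control value was under 1 read, so regions without any control read may also be entered as 1, and folds over control there may be understated.

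Doxo regions were sparse in the deserts. There were 9.10 Doxo regions per Mb in the 3 deserts and 21.2 per Mb in the rest of the 3 chromosomes, a ratio of 0.429. The diMe-Doxo regions numbered 12.8 per Mb in the deserts and 19.9 per Mb in the rest, a ratio of 0.643. Acla regions numbered 18.03 per Mb in the deserts and 23.3 per Mb in the rest, a ratio of 0.773. The order of the drugs was thus the same in density and in the ratio to the rest, with Doxo lowest and Acla highest. Acla was given at 20 µM and the other drugs at 10 µM, so drug and dose cannot be told apart in any comparison with Acla.

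The same order held in each desert taken alone. On chromosome 5, the desert stood to the rest at 0.449 for Doxo, while diMe-Doxo stood at 0.557 and Acla at 0.789. On chromosome 8 it was 0.488, 0.942 and 1.03, so that Acla regions were about as dense in that desert (26.4 per Mb) as in the rest of the chromosome (25.6 per Mb). On chromosome 13 the Doxo ratio was 0.514, the diMe-Doxo ratio 0.831 and the Acla ratio 0.919. The chromosome 13 desert was the sparsest in all 3 lists, with 7.54 Doxo, 10.1 diMe-Doxo and 13.4 Acla regions per Mb. The pooled ratios of Doxo (0.429) and Acla (0.773) lay under those of every single desert. Sparse chromosome 13 makes up 17.5 of 35.5 Mb in the deserts but 78.1 of 387 Mb in the rest, which lowers pooled ratios. K562 cells are aneuploid, so each desert is set beside its own chromosome, and copy number within a chromosome was not measured here.

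**Figure D1:**
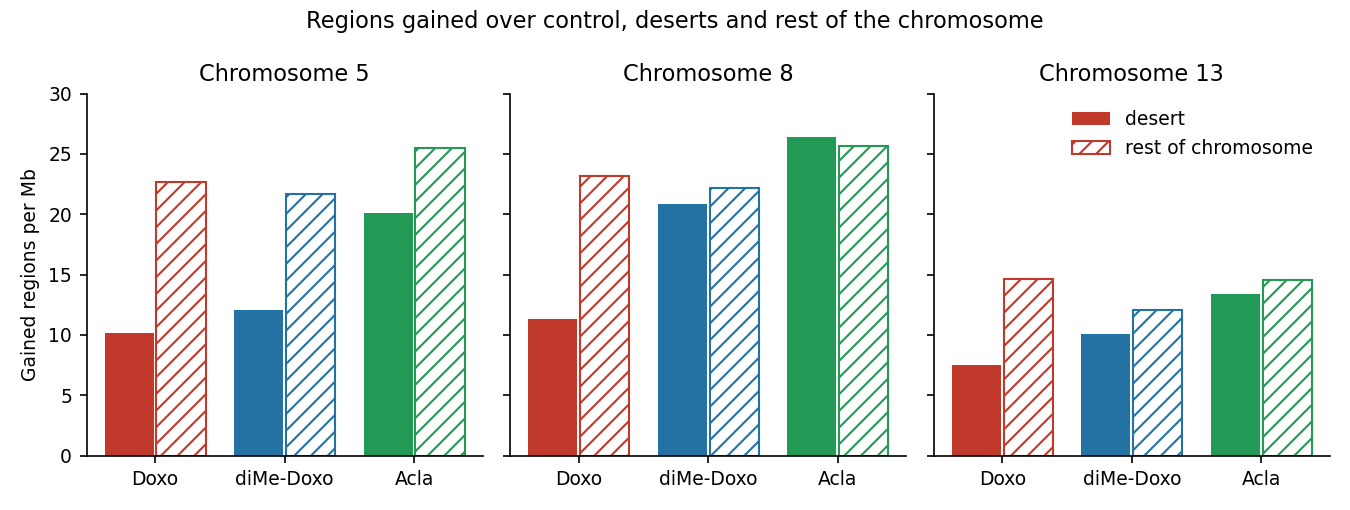
Gained regions per Mb (y axis) by drug (x axis) on chromosomes 5, 8 and 13; filled bars are the desert and hatched bars the rest of the chromosome, each a count from 1 list with no replicate error. The Doxo bar of each desert stands at 0.449 to 0.514 of its chromosome's other bar, and the Acla bar at 0.789 to 1.03.

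Of the 698 members, 323 (46.3%) were in the Doxo list, 455 (65.2%) in the diMe-Doxo list and 640 (91.7%) in the Acla list. Over all 100205 listed regions the shares were 66.6%, 52.7% and 61.2%. In the rest of the 3 chromosomes they were 60.6%, 56.9% and 66.6%. The rule used these lists, so the shares describe the members. Fewer than 1 in 10 members were thus outside the Acla list.

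The number of Doxo regions for each diMe-Doxo region was 0.710 in the deserts, 1.07 in the rest of the 3 chromosomes and 1.26 over the genome. It was 0.842 in the desert of chromosome 5, 0.541 in that of chromosome 8 and 0.750 in that of chromosome 13, against 1.05, 1.05 and 1.21 in the rest of those chromosomes. The ratio in the rest did not keep its side of 1. It was 0.828 when each list was limited to its 52784 regions of lowest p, 0.853 where neither control had a peak or more than 1 read, and 0.919 at regions with a peak in both treated libraries. The ratio in the deserts stayed lower than that in the rest in each of these settings, at 0.545, 0.598 and 0.576.

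By which drugs gained them, the largest class in the deserts was that of all 3 drugs, with 250 members (35.8% of members, against 29.5% of regions in the rest). Acla alone had 175 members (25.1%, against 16.7%), and diMe-Doxo with Acla had 172 (24.6%, against 16.9%). Regions of Doxo alone made up 3.58% of the members (25 regions), against 22.9% of regions in the rest and 29.5% over the genome. Doxo alone had 0.704 regions per Mb in the deserts and 8.03 per Mb in the rest, the largest difference in regions per Mb of the 7 classes.

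The other classes were small. Doxo with diMe-Doxo but not Acla had 5 members (0.716%, against 4.75% in the rest). Doxo with Acla had 43 members (6.16%, against 3.46%) and stood at the same pooled density in both, 1.21 per Mb. In this class each single desert was denser than the rest of its chromosome. The values were 1.64 and 1.47 per Mb on chromosome 5, 1.57 and 1.15 on chromosome 8, and 0.80 and 0.77 on chromosome 13. The diMe-Doxo drug alone had 28 members (4.01%, against 5.75%). Over the pooled deserts, classes that Acla shared or had alone thus held larger shares than in the rest, and those without Acla held smaller ones. Chromosome 8 went the other way in the class of all 3 drugs (28.8% of its desert, 30.1% of its rest). It also did so for diMe-Doxo alone (7.21% and 5.75%).

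**Figure D2:**
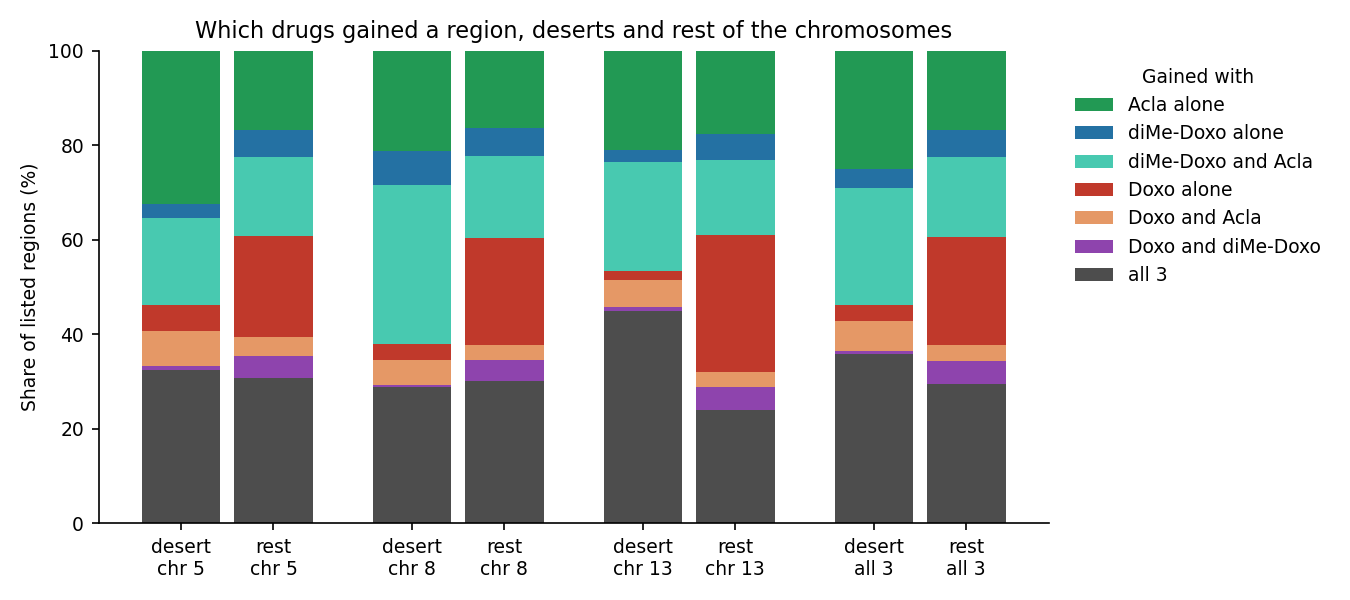
Share of listed regions in percent (y axis) that were gained with each combination of drugs (colours), in each desert and in the rest of its chromosome (x axis), and over all 3. Doxo alone is 2.02% to 5.35% of desert regions and 21.3% to 28.9% of regions in the rest.

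The mix of classes differed between the deserts. On chromosome 5, Acla alone made up 32.5% of members, as many as all 3 drugs (79 regions each). On chromosome 8, diMe-Doxo with Acla was the largest class, with 70 of 208 members (33.7%), against 17.4% in the rest of that chromosome. All 3 drugs had 60 members there. The rank rests on 1 window, since 28 of the 70, but 4 of the 60, lay at 109 to 110 Mb. On chromosome 13, regions of all 3 drugs made up 44.9% of members, against 23.9% in the rest, and at 6.34 per Mb were denser in the desert than in the rest (5.75 per Mb).

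Windows of 1 Mb show how even the pattern was. Doxo had fewer regions than diMe-Doxo in 28 of the 35 full windows of the deserts, as many in 5 and more in 2. In the rest of the 3 chromosomes it had fewer in 188 of 382 windows (49.2%). Doxo and diMe-Doxo each had fewer regions than Acla in all 35 desert windows, against 213 and 229 of the 382 windows of the rest. Both windows with more Doxo than diMe-Doxo regions were at the upper end of the chromosome 5 desert. The 27 to 28 Mb window had 10 regions in the Doxo list, 6 in the diMe-Doxo list and 11 in the Acla list, and the 28 to 29 Mb window held 14, 10 and 15.

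The windows also differed widely in number. On chromosome 5 the window at 26 to 27 Mb held the most members, 37, with 19 Doxo, 21 diMe-Doxo and 35 Acla regions. The lowest ratio of Doxo to diMe-Doxo on that chromosome was 0.571, at 20 to 21 Mb (8, 14 and 17 regions). On chromosome 13, the window at 61 to 62 Mb held the most members, 26 (13, 21 and 25 regions), and the window at 67 to 68 Mb the fewest, 2, of which 1 was gained with all 3 drugs and 1 with Acla alone. Dense and nearly empty windows thus lay within 1 desert.

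The window at 109 to 110 Mb of chromosome 8, at the lower end of that desert, stood apart. It held 47 members, the most of any desert window, with 7 Doxo, 36 diMe-Doxo and 42 Acla regions. Of its members 28 were gained with diMe-Doxo and Acla but not Doxo. In the other 6 windows of that desert the number of Doxo regions was 6 to 17, so the difference lay in the other lists. Without this window, picked after its values were seen, the ratio of Doxo to diMe-Doxo regions over the 3 deserts was 0.754. The window at 113 to 114 Mb held the fewest members of that desert, 18.

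**Figure D3:**
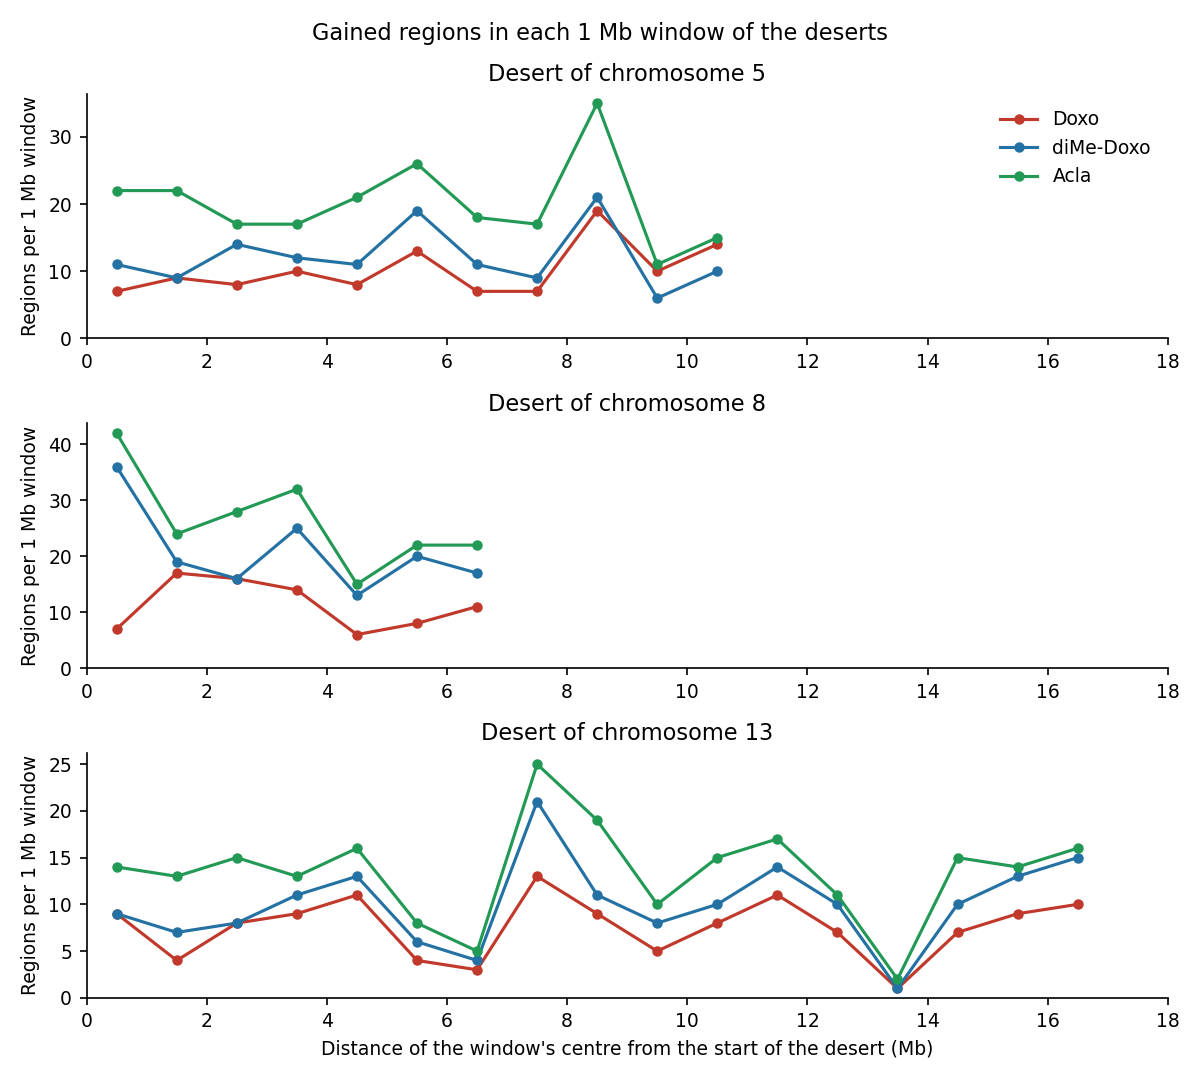
Number of gained regions in each full 1 Mb window (y axis) by the distance of the window's centre from the start of the desert in Mb (x axis), for Doxo, diMe-Doxo and Acla, in the deserts of chromosomes 5, 8 and 13; each point is a count from 1 list. The Acla line is the highest in all 35 windows, and the Doxo line lies above the diMe-Doxo line in 2, both at the end of the chromosome 5 desert.

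The edges of the windows did not mark a step in the lists in the same way everywhere. In the 5 Mb before the chromosome 5 desert there were 52.4 regions per Mb, with 0.744 Doxo regions for each diMe-Doxo region, and in the 5 Mb after it 34.0 per Mb, with a ratio of 1.36. Beside the chromosome 8 desert the ratio was 0.899 before and 0.530 after. The 5 Mb before the chromosome 13 desert had 60 regions in the Doxo list, 20 in the diMe-Doxo list and 24 in the Acla list, so that Doxo outnumbered diMe-Doxo there, and the 5 Mb after it had a ratio of 0.808. A ratio under 1 was thus found in 4 of 6 flanks as well. Nearest to the edges, the member at 71497729-71498800 of chromosome 13 had its midpoint 1.74 kb inside, and the region at 108994754-108995380 of chromosome 8 lay 4.93 kb outside, with authors' log2 folds of 3.79 and 3.03 for diMe-Doxo. The next region outside the upper edge of chromosome 13 was 41.9 kb away, and the next member inside the lower edge of chromosome 8 was 28.1 kb away.

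Members lay farther apart than regions elsewhere and were slightly wider. The median gap between neighbours was 30.4 kb in the deserts (quartiles 11.9 and 63.4 kb) and 10.8 kb in the rest (3.65 and 29.2 kb). Median width was 850.5 bp in the deserts (quartiles 615.5 and 1201 bp) and 778.0 bp in the rest (536.0 and 1103 bp). Members covered 18.6 kb per Mb of the deserts, and regions of the rest 30.5 kb per Mb. By chromosome, these values were 21.1 and 33.0 on chromosome 5, 26.4 and 33.2 on chromosome 8, and 13.9 and 20.2 on chromosome 13. Gaps were not split by chromosome. The difference in width was largest in the Doxo list, with a median of 1071 bp in the deserts and 836.0 bp in the rest. In the diMe-Doxo list the medians were 1013 and 897.0 bp, and in the Acla list 880.0 and 849.0 bp. Regions of Doxo alone went the other way, at 450.0 bp in the deserts and 597.0 bp in the rest, and were the narrowest class in the deserts. The classes of diMe-Doxo alone (578.0 and 605.0 bp) and diMe-Doxo with Acla (823.5 and 841.0 bp) were also narrower in the deserts, by less.

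Members had fewer control reads. Control replicate 1 had a mean of 2.28 reads per member and 3.07 per region of the rest, and control replicate 2 had 1.68 and 2.58. Per kb of region, the values were 2.40 and 3.53 reads in replicate 1 and 1.78 and 2.97 in replicate 2. Both controls stood at the lowest value of 1 read at 41.7% of members and at 31.2% of regions in the rest. No control library had a called peak at 95.3% of members and at 87.5% of regions in the rest, and both had one at 11 members (1.58%) against 4.64% of regions in the rest. The members were thus, more often than regions of the rest, without a called peak in untreated cells, and few reads stand behind their control values.

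Of the drug classes, Doxo alone had the most control reads per kb in the deserts, 4.69 and 2.996 in the 2 controls, against 6.81 and 5.95 in the rest. Regions of all 3 drugs had 2.15 and 1.42 reads per kb in the deserts and 2.42 and 1.93 in the rest. The class of diMe-Doxo with Acla had 1.92 and 1.73 in the deserts and 2.27 and 2.06 in the rest. In each of these 3 classes the deserts had fewer control reads per kb. Doxo with Acla went the other way in control replicate 1, with 4.53 reads per kb in the deserts and 2.98 in the rest, and not in replicate 2 (2.07 and 2.35).

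Authors' log2 folds over control, which chose the regions, had a higher median in the pooled deserts than in the rest in each list. The median in the Doxo list was 2.98 in the deserts and 2.91 in the rest. In the diMe-Doxo list it was 2.65 and 2.51, and in the Acla list 2.92 and 2.64. Taken singly, the chromosome 5 desert lay below its rest in the Doxo list (2.855 and 2.87). The chromosome 8 desert did so in the diMe-Doxo list (2.51 and 2.53). In all other cases, among them every desert in the Acla list, the desert median was higher. Among regions of all 3 drugs the difference was widest for Acla, with a median of 3.65 in the deserts and 3.02 in the rest. The medians were 3.21 and 3.02 for Doxo and 3.07 and 2.84 for diMe-Doxo. The Doxo excess in this class did not hold in each desert. It was present on chromosome 5, while the deserts of chromosome 8 and chromosome 13 (3.29 and 3.32) lay below their rests. For diMe-Doxo and Acla each single desert had the higher median. A called peak in both Acla libraries was present at 92.0% of desert Acla regions and at 77.4% of those in the rest. For Doxo these shares were 61.0% and 61.8%, and for diMe-Doxo 75.2% and 71.6%.

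The signal of each library, which also lies behind these folds, was higher in the deserts for Acla, but not for Doxo replicate 1. To put the drugs on a common scale, treated signal is given in control-read units, where 1 unit is the signal of 1 read of a control library. At the 250 members of all 3 drugs, median signal was 14.8 and 18.2 units in the Doxo libraries, 18.6 and 14.7 in the diMe-Doxo libraries and 27.8 and 21.3 in the Acla libraries. At the 3995 regions of all 3 drugs in the rest, it was 15.1 and 16.4, 15.6 and 13.1, and 17.6 and 14.6 units. In the deserts both Acla libraries were above both libraries of either other drug, and in the rest the libraries of the 3 drugs overlapped. The medians of the chromosome 13 desert were the lowest, at 13.1 and 15.4 units for Doxo, 15.8 and 11.9 for diMe-Doxo and 22.9 and 15.9 for Acla.

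Doxo and diMe-Doxo share their dose and time and differ in structure by the methyl groups on the sugar's amine. Their reads at regions in both lists were compared with edgeR's quasi-likelihood test, fitted over all 33140 such regions of the genome. Of the 255 desert regions in both lists, 26 (10.2%) were called higher with Doxo at an adjusted p of at most 0.05, where 28.9% of all regions tested were, and 7 (2.75%) were called lower, where 2.72% were. The median log2 difference was 0.09 in the deserts, 0.21 in the rest of the 3 chromosomes and 0.28 over all regions tested. The scale between the drugs decided the split. With TMM factors, 8 desert regions were called higher (background 23.6%) and 35 lower (background 10.6%), and the medians were -0.24 in the deserts and -0.05 over all regions. The desert median lay 0.19 under that of all regions with either scaling. Regions that both scalings called numbered 8 higher and 7 lower. The 26 higher calls were 11 without Doxo replicate 2 and 8 without diMe-Doxo replicate 2, and the 7 lower calls were 1 without Doxo replicate 1, 1 without replicate 1 of diMe-Doxo and 3 without its replicate 2. Such a fit leaves a drug with 1 library, has less power and takes that library to vary like the others.

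In the deserts taken singly, 10 of 81 shared regions on chromosome 5 were called higher with Doxo (12.3%, against 24.0% in its rest). On chromosome 8 it was 4 of 61 (6.56%, against 23.4%), and on chromosome 13 it was 12 of 113 (10.6%, against 33.0%). Lower calls were 4, 2 and 1 (rest 2.49%, 3.25% and 2.21%). With TMM, higher calls were 3, 2 and 3 (rest 18.3%, 19.6% and 28.5%). Lower calls were then 12, 10 and 13 (rest 10.9%, 11.3% and 7.92%). The median log2 difference was 0.17, -0.02 and 0.08. With TMM it was -0.16, -0.35 and -0.24, so the sign turned on chromosomes 5 and 13, and the chromosome 8 desert was the lowest of the 3 with both scalings.

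As above, Acla was given at 20 µM and both other drugs at 10 µM, so drug and dose cannot be told apart here either. Of 293 desert regions in the Doxo and Acla lists, edgeR called 13 higher with Doxo (4.44%, background 26.6%) and 69 lower (23.5%, background 11.3%), at an adjusted p of at most 0.05. The median log2 difference was -0.41 in the deserts, -0.01 in the rest and 0.12 over all 32787 regions tested. With TMM, 9 were higher (background 23.5%) and 123 lower (background 18.7%), with medians of -0.62 in the deserts and -0.09 over all regions. All 69 lower calls were among the 123. The desert median was -0.37 and -0.51 without Doxo replicate 1 or 2, and -0.22 and -0.60 without Acla replicate 1 or 2. Lower calls were fewer in each of these fits, which leave a drug with 1 library and have less power.

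Of 422 desert regions in the diMe-Doxo and Acla lists, edgeR called 40 lower with diMe-Doxo (9.48%, background 5.58%) and 0 higher (background 0.846%). At an unadjusted p under 0.05, 1 was higher, and 1779 were over all regions tested. DESeq2 and limma called 0 higher (backgrounds 1.83% and 0.889%). The median log2 difference was -0.48 in the deserts, -0.19 in the rest and -0.15 over all 43402 regions tested, and 382 of the 422 values were under 0. With TMM, 3 were higher (background 6.64%) and 72 lower (background 8.32%), with medians of -0.33 and 0.00. The lower calls moved widely on leaving out 1 library, to fewer or to more than 40, while the median stayed between -0.66 and -0.26.

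**Figure D4:**
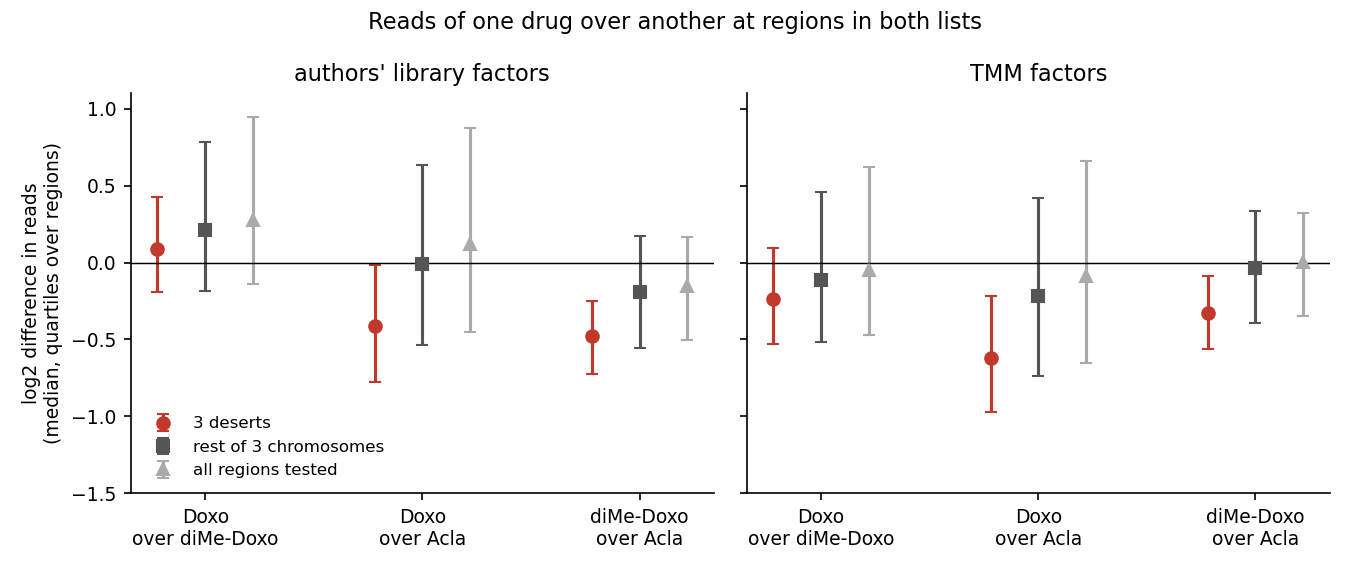
Median log2 difference in reads between drugs (y axis; bars are the quartiles over regions, not an error) for the 3 pairs (x axis), at regions in both lists of the pair, in the deserts, the rest of the 3 chromosomes and all regions tested, with the authors' library factors (left) and TMM factors (right). The desert median is the lowest of the 3 for each pair in both panels, and that of Doxo over diMe-Doxo is 0.09 on the left and -0.24 on the right.

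The region of chromosome 8 at 114644649-114646469 had the lowest authors' FDR of its desert in all 3 lists. It had 247 and 273 reads with Doxo, 436 and 380 with diMe-Doxo, 517 and 459 with Acla, and 1 and 2 in the controls, with no peak called in either control. In control-read units this is 124 and 136 with Doxo, 88.1 and 79.1 with diMe-Doxo, while Acla had 73.2 and 66.8. The libraries of the drugs did not overlap, and here Doxo was the highest. Doxo was 86.7 times control (95% counting interval 29.5 to 422), and the authors' log2 folds were 6.45, 5.84 and 5.58. Doxo over diMe-Doxo had a log2 difference of 0.64 ± 0.21 (SE, edgeR adjusted p = 0.00768), or 0.31 ± 0.10 with TMM (edgeR adjusted p = 0.0266), and the call was lost with DESeq2 (0.28) and without either Doxo library (0.70 and 0.57). Counting intervals here cover counting error only.

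The widest regions of the deserts were gained with all 3 drugs. The widest of chromosome 13, 2920 bp at 58206163-58209083, had 507 and 545 reads with Doxo, 398 and 339 with diMe-Doxo, 532 and 444 with Acla, and 15 and 1 in the controls. In control-read units this is 255 and 271 with Doxo, 80.4 and 70.6 with diMe-Doxo, while Acla had 75.3 and 64.6. Doxo was far above the other drugs, with a log2 difference over diMe-Doxo of 1.80 ± 0.21 (SE, edgeR adjusted p = 2.67e-17), or 1.47 ± 0.09 with TMM (edgeR adjusted p = 2.22e-10). Whether this region lies at or near a gene was not analysed here, so its place in a desert does not show that it is far from one. The control libraries disagreed, 15 reads against 1, so its fold over control, 32.9 with a counting interval of 20.2 to 57.8, does not carry the spread between the controls.

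At the widest regions of the other deserts Acla was the highest. The widest of chromosome 5, 3398 bp at 25909335-25912733, had 62.9 and 68.7 control-read units with Doxo, 82.9 and 57.5 with diMe-Doxo, while Acla had 104 and 84.5. The controls had 17 and 1 reads there. It was among the 11 members with a called peak in both controls. Doxo did not differ from diMe-Doxo beyond the spread of the libraries (log2 difference -0.09, 95% interval -0.52 to 0.33), though with TMM it was called lower (-0.42, edgeR adjusted p = 0.0252). The widest of chromosome 8, 2280 bp at 115920473-115922753, had 49.3 and 73.7 units with Doxo, 67.5 and 57.1 with diMe-Doxo, while Acla had 98.1 and 80.1. The controls had 11 and 1 reads there. Its log2 difference of Doxo over diMe-Doxo was -0.02 (95% interval -0.45 to 0.42). At both regions the Acla libraries were above all others, and the Doxo and diMe-Doxo libraries overlapped.

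The regions of lowest FDR on chromosome 5 were a different one in each list. In the Doxo list it was 22970008-22971795, with 77 and 85 reads with Doxo, 204 and 124 with diMe-Doxo, 441 and 299 with Acla, and 1 and 2 in the controls (authors' log2 folds 4.76, 4.52 and 5.18). In the diMe-Doxo list it was 24364041-24366042, with 113 and 148 reads with Doxo, 330 and 283 with diMe-Doxo, 575 and 474 with Acla, and 1 and 5 in the controls. In the Acla list it was 23104711-23106168, with 75 and 75 reads with Doxo, 227 and 152 with diMe-Doxo, 386 and 322 with Acla, and 1 and 2 in the controls. None was called different between Doxo and diMe-Doxo with either scaling, with 95% intervals of the log2 difference from -0.22 to 0.76, -0.38 to 0.49 and -0.53 to 0.44. In control-read units both Acla libraries were above all others at the Doxo-list region (62.4 and 43.5, with the higher Doxo library at 42.3) and at the Acla-list region (54.6 and 46.9, with the higher diMe-Doxo library at 45.9). At the diMe-Doxo-list region the libraries overlapped, with 81.4 and 69.0 units for Acla and 56.8 and 73.7 for Doxo.

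On chromosome 13 the lowest FDR in the diMe-Doxo and Acla lists belonged to 70380462-70382505. It had 73 and 77 reads with Doxo, 222 and 185 with diMe-Doxo, 406 and 311 with Acla, and 1 in each control. The folds over control were 37.5, 41.7 and 51.5, and with 1 read in each control the counting intervals were wide, 10.2 to 313 for Doxo. The lowest FDR in the Doxo list belonged to 71415163-71417173, near the upper edge, with 159 and 155 reads with Doxo, 279 and 231 with diMe-Doxo, 531 and 385 with Acla, and 3 and 1 in the controls. There Doxo was higher than diMe-Doxo by 0.59 ± 0.22 on the log2 scale (SE, edgeR adjusted p = 0.0248), a call that TMM did not make (0.26, edgeR adjusted p = 0.138).

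Of the named regions, the largest log2 differences between Doxo and diMe-Doxo were at regions that are not in the Acla list. At 64652056-64653124 of chromosome 13, Doxo had 162 and 214 reads, diMe-Doxo 87 and 77, and the controls 8 and 1. The log2 difference was 2.48 ± 0.24 (SE, edgeR adjusted p = 1.6e-23), or 2.15 with TMM (edgeR adjusted p = 8.25e-09). At 28926435-28927615 of chromosome 5, Doxo had 60 and 80 reads, diMe-Doxo 60 and 22, and the controls 1 and 3. The log2 difference was 2.06 ± 0.32 (SE, edgeR adjusted p = 1.3e-09), or 1.75 with TMM (edgeR adjusted p = 0.000282). Both regions are among the 5 members gained with Doxo and diMe-Doxo but not Acla. On chromosome 8 the lowest adjusted p belonged to 111904811-111906695, with 104 and 119 reads with Doxo, 135 and 109 with diMe-Doxo, 286 and 185 with Acla, and 1 and 11 in the controls (log2 difference 1.16 ± 0.25, SE, edgeR adjusted p = 1.38e-05).

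In the other direction the counts were smaller. At 21103003-21104566 of chromosome 5, Doxo had 17 and 11 reads, diMe-Doxo 92 and 84, Acla 167 and 88, and the controls 1 and 2. In control-read units this is 8.55 and 5.48 with Doxo, 18.6 and 17.5 with diMe-Doxo, while Acla had 23.6 and 12.8, so Doxo lay under every other treated library (log2 difference from diMe-Doxo -1.36 ± 0.41, SE, edgeR adjusted p = 0.00347). At 112272629-112274127 of chromosome 8, Doxo had 12 and 23 reads and diMe-Doxo 86 and 106 (-1.17 ± 0.38, SE, edgeR adjusted p = 0.00787). At 66482752-66484455 of chromosome 13, Doxo had 43 and 54 reads and diMe-Doxo 221 and 160 (-0.68 ± 0.27, SE, edgeR adjusted p = 0.0342). Each of these calls was lost on leaving out single libraries, with log2 differences of -1.08 to -1.40 for the first without Doxo replicate 2 or either diMe-Doxo library, -0.78 and -0.99 for the second without Doxo replicate 1 or diMe-Doxo replicate 2, and -0.46 to -0.85 for the third without either Doxo library or diMe-Doxo replicate 1.

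**Figure D5:**
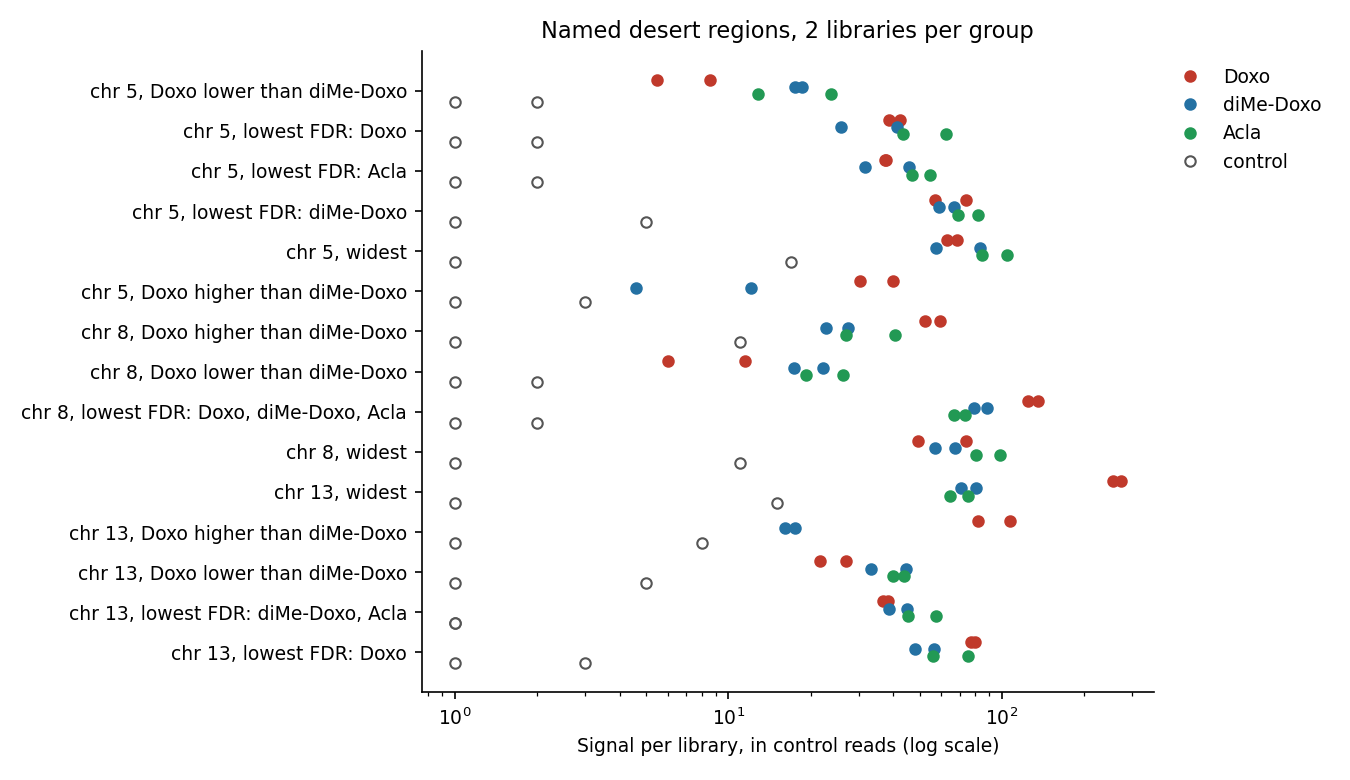
Signal of each library in control-read units (x axis, log scale) at the named desert regions (y axis, by chromosome and the reason each was named), with 2 points per drug; open points are the control libraries at their own read counts. At every region all treated points lie right of both control points, Doxo reaches 255 and 271 units at the widest region of chromosome 13, and no Acla point is drawn at the regions that are not in the Acla list.

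Among members gained with a single drug, the one of lowest FDR was picked after its values were seen. For Doxo it was 69658522-69660541 of chromosome 13, 2019 bp wide, with 191 and 309 Doxo reads and 8 and 1 control reads (authors' log2 fold 4.77). For diMe-Doxo it was 109932374-109933079 of chromosome 8, with 39 and 41 diMe-Doxo reads and 1 in each control (3.03). For Acla it was 24087852-24088898 of chromosome 5, with 156 and 89 Acla reads and 1 and 3 control reads (3.18). In the class of Doxo alone the median width was 450.0 bp and the median authors' log2 fold 2.55. A pick by lowest FDR favours a fold above that median, so the difference is no result. A region absent from a list missed that list's limits or was not tested there, so its reads with the other drugs were not analysed here.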

How the data were processed

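ATAC-seq libraries of K562 cells were sequenced on a HiSeq4000, per the labels' protocols. The submitters' processing notes name DiffBind and GRCh37. Versions, aligner and peak caller are not given in the sources used. Each deposited list gives, per region, the authors' log2 fold and log2 means, p-value and FDR (an adjusted p-value), the number of libraries with a called peak (a count), and the normalised signal of 2 treated and 2 control libraries. The lists hold regions whose p does not exceed 0.05 and whose log2 fold reaches 1.5.

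Whole reads were recovered by dividing the deposited signal by each library's step. For diMe-Doxo and Acla the smallest value is several reads, so the step was read from the gaps between values. Lists were joined on identical coordinates, given as deposited, and 0 regions overlapped in part. The rest of a chromosome runs from its first to its last listed region without the desert. Control-read units are treated reads scaled by the authors' factors through the shared controls, and that scale was also used in the edgeR fits. Drug pairs were compared with edgeR 4.0.16 (glmQLFit, glmQLFTest, Benjamini-Hochberg over all regions in both lists), and with DESeq2 1.42.0, limma 3.58.1 and TMM as alternatives. The standard error of a log2 difference is its size over the root of the quasi-likelihood F. Counting intervals are exact, at 95%. The test scripts were checked on simulated counts. With 2 libraries against 2, an exact two-sided permutation test of 1 region cannot go under p = 0.333.

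Named regions were, in each desert, those of lowest authors' FDR per list, the widest, and those of lowest edgeR adjusted p for Doxo against diMe-Doxo in each direction; windows were those with the most and fewest members and the highest and lowest Doxo to diMe-Doxo ratio. The deserts, lists and tests were chosen with earlier results of these data known. Sequence and gene position were not used here.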

Additional observations from a re-analysis of the deposited data

How the results depend on the processing

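The ratio of Doxo to diMe-Doxo regions in the deserts over that in the rest was 0.666 and ran from 0.559, against all other 1 Mb windows of the genome, to 0.732, without the desert of chromosome 8. All 6 density values kept their direction in every setting, except the ratio in the rest, which was 0.828 with the same number of regions from each list, 0.853 where neither control had a peak or more than 1 read, and 0.919 with a peak in both treated libraries. The cause was not tested. The size of the ratios of desert to rest did move. For Acla the ratio of 0.773 was 0.964 at FDR of at most 0.01 and log2 fold of at least 2. It was 0.92 with a peak in both treated libraries, and 0.909 where neither control had a peak or more than 1 read. In these settings the Doxo ratio of 0.429 was 0.431, 0.423 and 0.595. The diMe-Doxo ratio of 0.643 was 0.733, 0.676 and 0.849. Without the desert of chromosome 8 the Acla ratio was 0.725. Leaving out a desert or the window of the lowest ratio was chosen after seeing the data, as was limma.

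Between Doxo and diMe-Doxo, the median log2 difference of 0.09 was -0.24 with TMM and -0.26 with DESeq2, and ran from -0.029 to 0.25 on leaving out 1 library (-0.029 without Doxo replicate 2 and -0.018 without diMe-Doxo replicate 2). Higher and lower calls were 26 and 7, 8 and 35 with TMM, 6 and 13 with DESeq2, 17 and 2 at FDR of at most 0.01 and log2 fold of at least 2, and 8 to 27 and 1 to 7 without 1 library. Between Doxo and Acla, the 13 higher and 69 lower calls were 6 higher with DESeq2, 123 lower with TMM, 7 and 31 at the stricter limits, and 7 to 13 and 14 to 68 without 1 library. Between diMe-Doxo and Acla, the 40 lower calls were 72 with TMM (with 3 higher), 13 with DESeq2, 16 at the stricter limits and 0 to 102 without 1 library. Of the named regions, the log2 difference of Doxo over diMe-Doxo changed sign at 25909335-25912733 of chromosome 5 without diMe-Doxo replicate 1 (range without 1 library -0.33 to 0.19), and at 115920473-115922753 of chromosome 8 without Doxo replicate 1 (0.24) or diMe-Doxo replicate 1 (0.11), with a range of -0.34 to 0.24. A minimum of 20 reads in every library and limma kept each count within 1.5 times. The direction between Doxo and diMe-Doxo thus depended on the factors.

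Mb without unsequenced gaps and the gene and sequence context were not run, since no genome of the build was used. No paired analysis was possible because the libraries carry no shared replicate numbers in the labels. Control values of 1 read limit every fold over control.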
